A study of Mus musculus with 10 samples.

Results

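The genes described here are 10 members of the enzyme families that reduce oxidised methionine, peroxides and thioredoxin: the methionine sulfoxide reductases Msra, Msrb1, Msrb2 and Msrb3, the glutathione peroxidases Gpx1, Gpx3 and Gpx4, the thioredoxin reductases Txnrd1 and Txnrd2, and the small selenoprotein Selenow. They are 10 of the 56748 genes counted, and all 10 were expressed highly enough to be tested. The names were chosen by the training against sedentary fold changes of these same hearts, in which Msrb1 stood out, and the others were added as its relatives in family or pathway with their fold changes known. Their differences between the groups are therefore given as a description, with a standard error and no p-value. Where a gene of the 10 is said to pass a false discovery rate threshold, that too is a description and lends no support.

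The study measured mRNA by RNA sequencing in whole mouse hearts, both atria included, to ask what forced endurance training changes in the heart. In the training group, 5 male wild-type C57BL/6 mice were made to run on a treadmill at 15 m/min for 120 min on 5 days a week over 8 weeks. The sedentary group, called control in the sample titles, was 5 mice of the same strain, sex and age that did not train. Each library is the heart of 1 mouse and no hearts were pooled, so the spread within a group is a spread between animals. All mice were wild type and 8 weeks old when obtained.

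Methionine in proteins is readily oxidised to methionine sulfoxide, which exists in an S and an R form. MSRA reduces the S form and the MSRB enzymes reduce the R form, so that a protein damaged at methionine can be repaired in place. MSRB1 works in the cytosol and nucleus, where it also reverses the oxidation of actin by the MICAL monooxygenases, while MSRB2 is mitochondrial and MSRB3 is found in the endoplasmic reticulum and mitochondria. Thioredoxin returns the electrons, and the thioredoxin reductases in turn recharge thioredoxin. MSRB1, the peroxidases GPX1, GPX3 and GPX4, both thioredoxin reductases and SELENOW are selenoproteins, in which the rare amino acid selenocysteine sits in the active centre. Selenocysteine is encoded by UGA, a codon that otherwise stops translation.

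The selenocysteine codon is the feature that sets Msrb1 apart from the other MsrB genes, and it is shown in its coding sequence for that reason. In the 3 lines below, 8 codons on each side of the catalytic position are printed 5′ to 3′ on the coding strand of GRCm39, with the catalytic codon in capitals. Msrb1 carries TGA there, and the aligned codon of Msrb2 and Msrb3 is TGC for cysteine.
Msrb1: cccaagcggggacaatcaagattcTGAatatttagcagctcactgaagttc
Msrb2: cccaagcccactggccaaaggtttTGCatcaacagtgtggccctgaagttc
Msrb3: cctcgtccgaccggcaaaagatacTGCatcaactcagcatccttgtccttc
The Msrb1 codon lies at chr17:24959132-24959134 on the plus strand and encodes residue 95 of 116. The Msrb2 codon lies at chr2:19399122-19399124 on the plus strand (residue 162 of 175), and the Msrb3 codon at chr10:120620081-120620083 on the minus strand (residue 151 of 186). MSRB1 shared 38 of 97 aligned residues with MSRB2 (39.2%) and 40 of 109 with MSRB3 (36.7%), whereas MSRB2 and MSRB3 shared 63 of 124 (50.8%). MSRA, of 191 residues, has no selenocysteine in its annotated model.

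The peroxidases and reductases place the codon differently, as the same kind of window shows. In the 3 peroxidases and Selenow the TGA lies well inside the coding sequence, and the printed windows of Gpx3 and Selenow run across a splice junction.
Gpx1: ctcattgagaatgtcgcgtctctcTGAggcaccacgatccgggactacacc
Gpx3: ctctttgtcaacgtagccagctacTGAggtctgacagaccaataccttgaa
Gpx4: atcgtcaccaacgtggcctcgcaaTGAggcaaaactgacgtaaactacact
Selenow: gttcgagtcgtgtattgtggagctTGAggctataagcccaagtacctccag
Txnrd1: ggagacatcctccagtctggctgcTGAggt
Txnrd2: ctggagcctactgtgactggttgcTGAggc
The codon is residue 47 of 201 in GPX1 (chr9:108216650-108216652), residue 73 of 226 in GPX3 (chr11:54798082-54798084), residue 73 of 197 in GPX4 (chr10:79890571-79890573) and residue 13 of 88 in SELENOW (chr7:15654389-15654391). In both thioredoxin reductases it is the last codon but 1, residue 498 of 499 in TXNRD1 (chr10:82731871-82731873) and residue 526 of 527 in TXNRD2 (chr16:18296522-18296524), directly after a TGC codon. Every codon in the 6 lines is followed by a glycine codon beginning GG, and that of Msrb1 is not. Txnrd1 and Txnrd2 shared 277 of 488 aligned residues (56.8%), Gpx1 and Gpx3 98 of 183 (53.6%), Gpx1 and Gpx4 69 of 170 (40.6%), and Gpx3 and Gpx4 64 of 191 (33.5%).

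Depth was ample for all 10 genes. Uniquely assigned counts totalled between 29461697 and 35945417 in the training hearts and between 35196993 and 39431030 in the sedentary hearts, so the sedentary libraries were on the whole deeper. The least counted gene of the 10, Txnrd2, still had 770 to 1115 counts per heart, and Msrb1 had 2510 to 4919. Values are given as counts relative to the library total (CPM) after TMM scaling, which corrects that total for composition, and a gene is said to pass where its false discovery rate (FDR) over all 15454 genes tested was below 0.1. Cardiomyocyte markers were abundant in every heart, with log2 fold changes below 0 for 8 of 8 and Actc1 called as lower (−0.38, edgeR adjusted p = 0.022). Of the skeletal muscle markers Myh4 and Myog had at most 3 counts in any heart, whereas Acta1 and Ckm, which the heart also expresses, were both called as lower (−0.84 and −0.22, edgeR adjusted p = 0.0935 and 0.0282). The summed atrial markers (Nppa, Sln, Myl7, Myl4 and Bmp10) varied from 2678 to 6620 CPM in the sedentary and from 4795 to 7306 CPM in the training hearts. Log2 fold changes were above 0 for 5 of 5, with 1, Sln, passing as higher. The summed levels of the 6 endothelial markers did not overlap, at 758 to 812 CPM after training and 845 to 891 CPM in sedentary hearts, and 2 of the 6 passed as lower. Of the fibroblast markers 6 of 6 had log2 fold changes above 0 and 2 were called as higher. The 5 smooth muscle markers were mixed, with 2 called as higher, 3 log2 fold changes above 0 and 2 below. Their summed levels overlapped, at 387 to 517 CPM after training and 389 to 504 CPM in sedentary hearts. No macrophage, erythroid or adipocyte marker was called. However, 5 of the 5 adipocyte markers tested had log2 fold changes above 0, and 6 of 6 erythroid markers had them below 0. What part these shifts in markers had in the levels of the 10 genes was not tested.

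Levels between genes can be compared only per transcript length, and for that the TPM values of the sedentary hearts were used, which divide by transcript length. Gpx4, which reduces lipid hydroperoxides in membranes, had the highest level of the 10, at 750.4 ± 31.7 TPM (SD, n = 5), and ranked 91 of the 15454 genes over all hearts. Gpx3, the secreted peroxidase of plasma, followed at 372 ± 109 TPM. These 2 levels lay apart from each other and from every other member. However, the TPM of Gpx4 rests on estimated counts that summed to 140.4% of its unique counts, and the cause was not tested.

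Msrb1 was the most abundant methionine sulfoxide reductase, with 142 ± 13.4 TPM in the sedentary hearts. It overlapped with Selenow (125 ± 3.81 TPM), a small thioredoxin-like selenoprotein abundant in muscle, and both lay above Gpx1, the general cytosolic peroxidase (94.8 ± 10.5 TPM). The other reductases of methionine sulfoxide were lower, Msrb3 at 42.6 ± 1.99 TPM, Msrb2 at 39.9 ± 3.81 TPM and Msra at 28.1 ± 2.22 TPM. Msrb3 and Msrb2 overlapped, as did Msra and the cytosolic Txnrd1 (24.2 ± 1.80 TPM), and the mitochondrial Txnrd2 was lowest at 20.2 ± 1.82 TPM. The heart thus held more Msrb1 mRNA per length than mRNA of any other member of its enzyme class, and in each of the 5 sedentary hearts its value (128 to 158 TPM) exceeded the highest value of Msrb2, Msrb3 or Msra, which was 45.5 TPM.

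**Figure D1:**
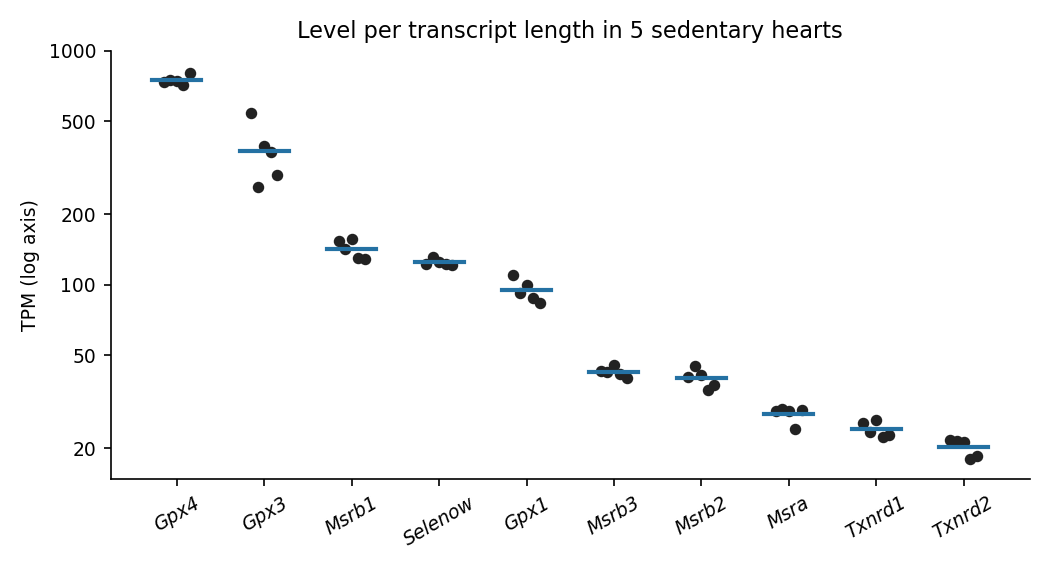
Level of each of the 10 genes in the sedentary hearts in TPM on a log axis, with 1 point per heart and a bar at the mean of 5. Gpx4 and Gpx3 lie above all others, Msrb1 overlaps only with Selenow, and Txnrd2 is lowest at a mean of 20.2 TPM.

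Msrb1 (ENSMUSG00000075705, chr17:24955614-24961752, plus strand) was lower in every training heart than in any sedentary heart. The 5 sedentary hearts held 122, 122, 128, 113 and 111 CPM, and the 5 training hearts 93.9, 96.6, 94.0, 91.7 and 83.3 CPM. The groups were separated by a gap between the highest training value and the lowest sedentary value, and training heart 5 was the lowest of all. The mean fell by 22.9%, from 119 ± 6.98 to 91.9 ± 5.13 CPM (SD, n = 5 each), a log2 fold change of −0.38 with a standard error of 0.05. In whole hearts, fewer cells of a type and less RNA per cell cannot be told apart. On the TPM scale the training hearts ranged from 109.9 to 122 TPM and again did not overlap with the sedentary ones. Over 20 alternative settings of the fit its log2 fold change ranged from −0.40 to −0.32.

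The other methionine sulfoxide reductases overlapped between the groups. Msra (ENSMUSG00000054733, chr14:64357410-64693352, minus strand), the only reductase of the S form, spanned 30.9 to 35.2 CPM after training and 31.4 to 38.1 CPM in sedentary hearts, with a log2 fold change of −0.07 (SE 0.06). The mitochondrial Msrb2 (ENSMUSG00000023094, chr2:19376244-19400790, plus strand) spanned 39.8 to 48.7 CPM against 40.5 to 50.8 CPM (log2 fold change −0.04, SE 0.07). Msrb3 (ENSMUSG00000051236, chr10:120617001-120735022, minus strand) spanned 152 to 165 CPM against 149.8 to 168 CPM (log2 fold change −0.02, SE 0.04). In all 3, each group's mean lay within 1 SD of the other's. Within the MsrB family, the groups separated in Msrb1, which stood out when the genes were chosen, and overlapped in Msrb2 and Msrb3. They also overlapped in the selenoprotein genes Gpx1, Gpx3, Selenow, Txnrd1 and Txnrd2, though not in Gpx4. The difference between the MsrB genes in their fold changes was not tested.

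Gpx4 (ENSMUSG00000075706, chr10:79883000-79892273, plus strand), which protects membrane lipids from peroxidation, was the other gene of the 10 with no overlap. The sedentary hearts held 262, 285, 270.3, 267 and 289 CPM, and the training hearts 256, 245, 236, 248 and 223 CPM. The lowest sedentary and the highest training heart, each number 1 of its group, lay close together. The mean fell by 12.0%, from 275 ± 11.9 to 242 ± 12.5 CPM (SD, n = 5 each), with a log2 fold change of −0.19 (SE 0.05). The log2 fold change of Gpx4 was −0.18 without training heart 3 and −0.13 when the atrial marker score entered as a covariate, and in neither was it below the FDR threshold. The expected counts that RSEM assigns, which share out reads that match several places, summed to 140.4% of the unique counts of Gpx4, against 95.8 to 99.5% for the other 9 genes, and gave a log2 fold change of −0.15. The cause of the excess in expected counts was not tested. In TPM, which rests on the expected counts and is not corrected for composition, the groups overlapped (645 to 757.5 TPM in the training and 717 to 802 TPM in the sedentary hearts).

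Gpx1 (ENSMUSG00000063856, chr9:108216102-108217546, plus strand), which reduces hydrogen peroxide with glutathione, had a higher mean in the training hearts, and the groups overlapped. The sedentary hearts held 64.6, 59.0, 61.0, 55.9 and 52.9 CPM, and the training hearts 64.4, 64.7, 67.2, 68.5 and 59.9 CPM. Of the training hearts, 3 lay above the highest sedentary heart, number 1. The log2 fold change was 0.15 (SE 0.06) over all 10 hearts and 0.07 with the atrial score as a covariate. An antisense long noncoding gene, Gm57050, covers 1232 of the 1445 exon bases of Gpx1 (85.3%). Counting without regard to strand left 3.38% of its counts and a log2 fold change of 0.37, and the cause was not tested.

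Gpx3 (ENSMUSG00000018339, chr11:54793279-54802424, plus strand) was the most variable of the 10. The sedentary hearts held 764, 397, 569, 573 and 452 CPM, and the training hearts 632, 626.5, 787, 679.8 and 612 CPM. Sedentary hearts 2 and 5 were the lowest of all 10, and sedentary heart 1 was exceeded only by training heart 3. The coefficient of variation was 25.6% in the sedentary and 10.7% in the training hearts, against 3.18 to 9.01% in either group for the other 9 genes. The log2 fold change of 0.28 had a standard error of 0.14, and 1 training heart lay above the highest sedentary heart. Leaving out 1 heart moved it from 0.18 (without sedentary heart 2) to 0.42 (without sedentary heart 1). In the latter case Gpx1 and Gpx3 were both below the FDR threshold, but the heart left out had the highest sedentary value of both genes. In GENCODE M39, Tnip1 on the opposite strand overlaps 2603 of the 3062 exon bases of Gpx3 (85.0%). Both-strand counting kept 100.1% of the counts of Gpx3. The authors counted on another annotation release, so that overlap need not apply to these counts.

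The thioredoxin reductases and Selenow had closely similar ranges in the groups. Txnrd1 (ENSMUSG00000020250, chr10:82669785-82733546, plus strand), the cytosolic reductase, spanned 64.0 to 76.9 CPM after training and 67.8 to 74.0 CPM in sedentary hearts (log2 fold change 0.03, SE 0.05). Its mitochondrial counterpart Txnrd2 (ENSMUSG00000075704, chr16:18245134-18297823, plus strand) spanned 25.4 to 30.4 CPM against 25.2 to 31.3 CPM (log2 fold change −0.04, SE 0.07). Selenow (ENSMUSG00000041571, chr7:15651133-15656327, minus strand) spanned 73.7 to 86.5 CPM against 76.1 to 87.4 CPM (log2 fold change −0.002, SE 0.05). For these 3 genes the difference between the means was smaller than the SD of either group.

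**Figure D2:**
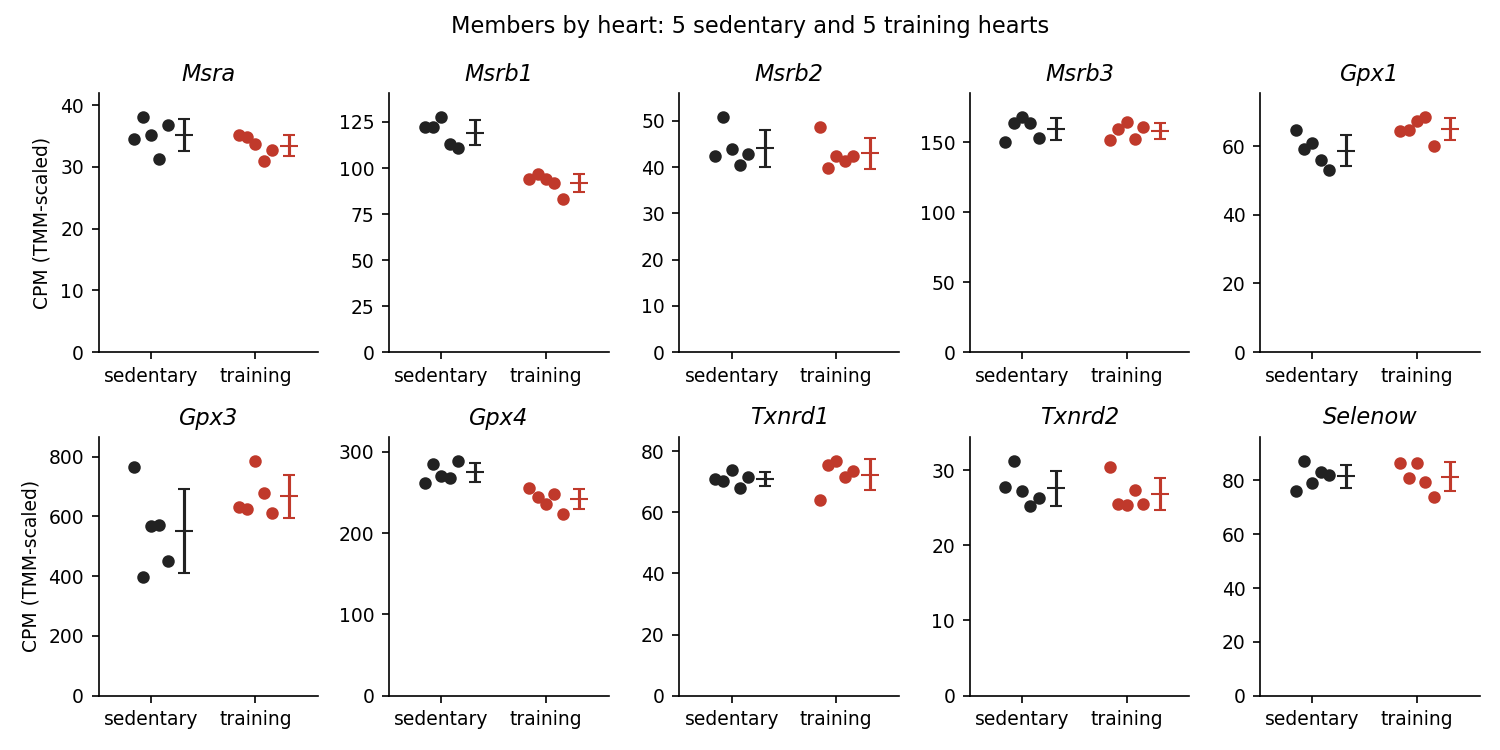
Level of each gene in every heart in CPM after TMM scaling, on axes that start at 0, with 1 point per heart and the mean ± SD of 5 hearts beside it. The training hearts lie below all sedentary hearts for Msrb1 and Gpx4, and the groups overlap for the other 8 genes.

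Of the 10 genes, 2 were below the FDR threshold (Msrb1 and Gpx4), both lower in the training hearts, and the same 2 were those without overlap. Over all genes, 7.01% were called in either direction, 2.75% as higher and 4.26% as lower, and 2.94% were lower without overlap between the groups. The shares are printed as background only, because the same comparison helped to choose the 10 genes. Of the log2 fold changes, 7 were below 0 and 3 above, with a median of −0.03 over the 10 genes and of 0.0003 over all genes tested.

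Gpx3 moved with the atrial markers from heart to heart. The atrial score, the mean of the centred log2 CPM of the 5 atrial markers, was lowest in sedentary hearts 2 and 5 (−1.07 and −0.94) and highest in training heart 3 (0.72), and these were also the hearts with the lowest and the highest Gpx3. After each group's mean was subtracted, Pearson's r between the log2 level of Gpx3 and the score was 0.964 over 10 hearts (exact two-sided permutation test within groups, p = 0.000278, adjusted p = 0.00278 over the 10 genes) and Spearman's rho was 0.976 (exact permutation p = 0.000347, adjusted p = 0.00347). Without the 2 hearts farthest from the median score, r was 0.932. With the score as a covariate, the log2 fold change of Gpx3 between the groups was −0.08 (SE 0.06) in place of 0.28.

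For none of the other 9 genes did the correlation with the atrial score pass adjustment over the 10 genes. Their r lay farthest from 0 for Msra (−0.61), Gpx1 (0.589) and Gpx4 (−0.542). The lowest adjusted p of these r was 0.392 by the same exact permutation test, and 10 hearts are too few to show that no relation exists. With the score as a covariate, the log2 fold change went from 0.15 to 0.07 in Gpx1 and from −0.19 to −0.13 in Gpx4. Msrb1 had an r of 0.229 (adjusted p = 0.688, exact permutation), and its log2 fold change was −0.40 with the score as a covariate. Against the adipocyte marker score, Gpx3 had an r of 0.591 over the same 10 hearts, for which no p-value was computed. The summed adipocyte markers varied widely, from 19.8 to 172 CPM in the training and from 17.3 to 134 CPM in the sedentary hearts. These relations were computed after the data had been seen, and what part atrial or fat tissue had in the level of Gpx3 was not tested.

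**Figure D3:**
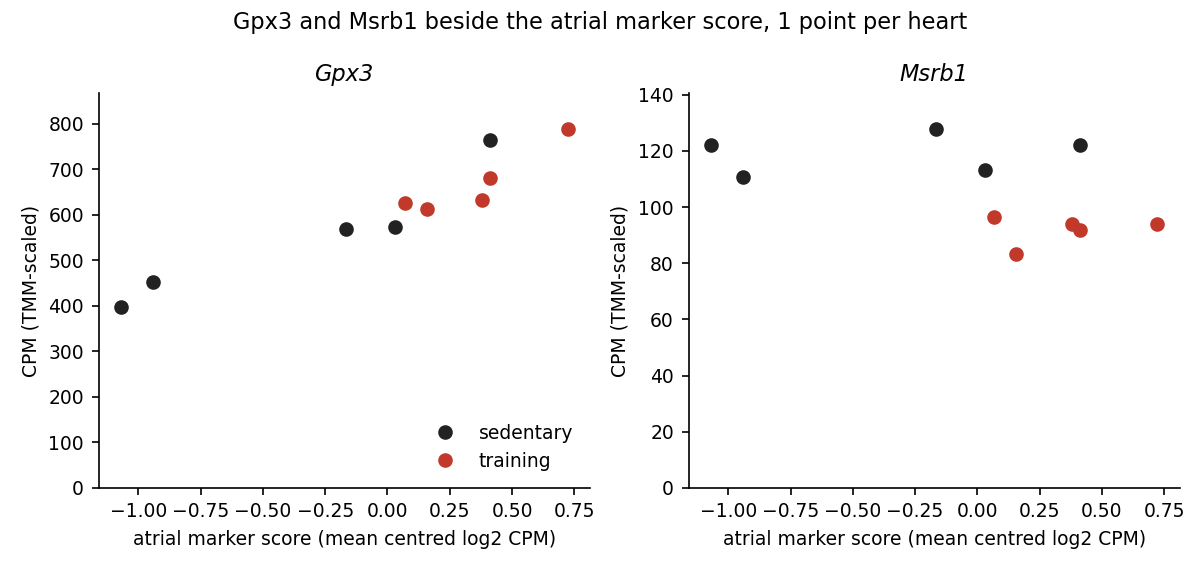
Level of Gpx3 and of Msrb1 in CPM against the atrial marker score (mean centred log2 CPM of 5 markers), with 1 point per heart in 5 sedentary and 5 training hearts. Gpx3 climbs with the score through both groups, while all training hearts lie below all sedentary hearts in Msrb1.

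No pair of the 10 genes had a correlation from heart to heart that passed adjustment over all pairs. Of the 45 pairs, 28 had a correlation above 0 after the group means were subtracted, with a median r of 0.147. The highest was that of Msrb2 and Txnrd2, both mitochondrial, at r = 0.906 over 10 hearts (exact permutation p = 0.00854, adjusted p = 0.384 over the 45 pairs). Its rho was 0.624 (exact permutation p = 0.0747, adjusted p = 0.615). The r fell to 0.390 without the 2 hearts farthest from the median of Msrb2. Msrb1 and Gpx1 had an r of 0.774 (adjusted p = 0.412, exact permutation), and the lowest r was −0.56, of Txnrd1 and Txnrd2.

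The genes closest to Msrb1 in their pattern from heart to heart, among 8495 genes with at least 10 CPM, were Rabgef1, Anapc7, Psmd13, Pgk1 and Rnh1. Their r with Msrb1, after subtraction of the group means and over 10 hearts, ran from 0.953 for Rabgef1 to 0.900 for Rnh1, and their rho from 0.770 to 0.867. Between the groups their log2 fold changes were smaller in size than that of Msrb1 and of either sign. They were −0.15 for Rabgef1, −0.02 for Anapc7, 0.009 for Psmd13, −0.03 for Pgk1 and 0.11 for Rnh1. They are the extremes of many genes and are listed as a description.

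The mouse has further selenoprotein genes beyond those above, and their values chose none of the 10. Of these 17 genes, 13 were expressed highly enough to be tested. None was called by edgeR at an FDR below 0.1, beside 7.01% of all genes tested. At an unadjusted p below 0.05 there were 4 of the 13, beside 3087 of the 15454 genes tested, and DESeq2 called 1, Selenof. Their log2 fold changes were above 0 for 11 and below 0 for 2, with a median of 0.05 and a range from −0.16 to 0.16. The 4 genes at an unadjusted p below 0.05 were Selenof, Selenok, Selenos and Sephs2, the last of which is the selenophosphate synthetase that is itself a selenoprotein. They are named after their values were seen.

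Selenop, the plasma carrier of selenium, had the highest level of these genes, with 341 ± 18.3 CPM after training and 325 ± 15.97 CPM in sedentary hearts (log2 fold change 0.07, edgeR adjusted p = 0.452). Selenof was at 87.4 ± 3.52 against 80.4 ± 3.74 CPM (log2 fold change 0.12, SE 0.04, edgeR adjusted p = 0.145). Selenok (0.11, edgeR adjusted p = 0.141) and Selenos (0.16, edgeR adjusted p = 0.211) had log2 fold changes above 0, and Sephs2 had one below 0 (−0.16, edgeR adjusted p = 0.197).

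**Figure D4:**
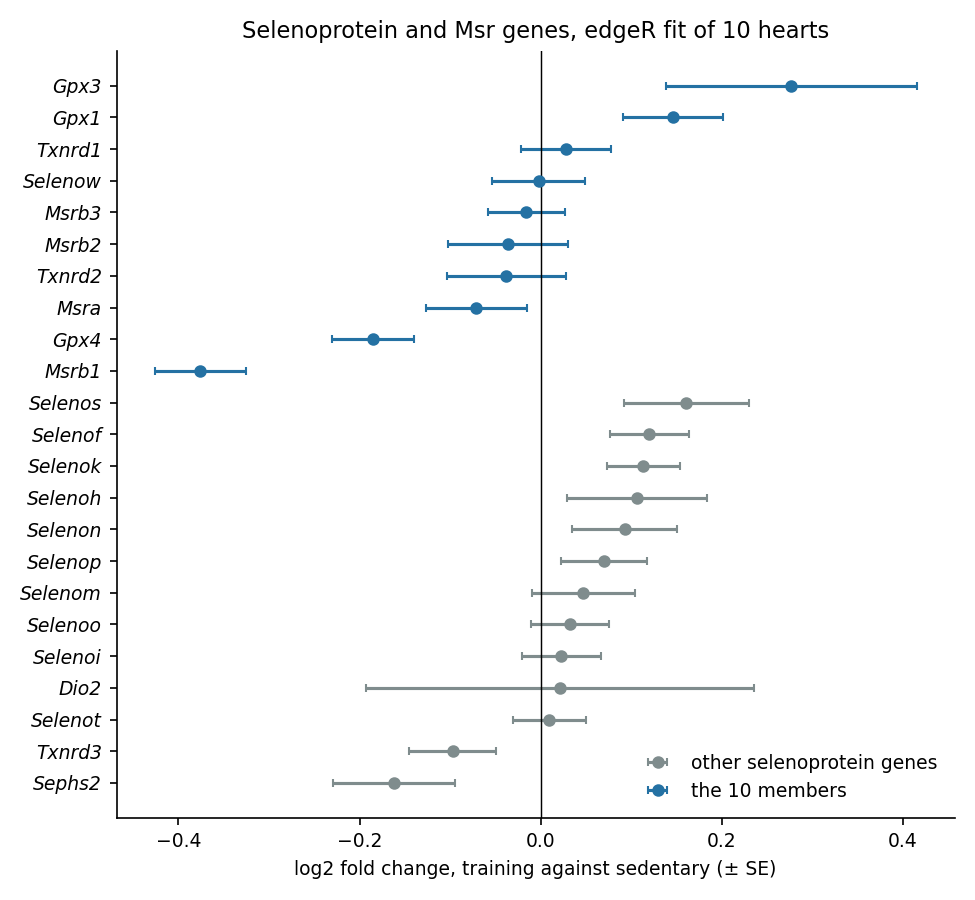
Log2 fold change between the groups, training over sedentary, with its standard error for the 10 genes (blue) and the 13 other selenoprotein genes tested (grey), from the edgeR fit of 10 hearts. Msrb1 lies farthest below 0 at −0.38 and Gpx3 farthest above at 0.28, and 11 of the 13 grey points lie above 0 with none called.

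Selenocysteine is made on its own transfer RNA and inserted by dedicated factors. Of 10 genes listed around this machinery, among them Lrp8 and Scly, 1 was called, as higher, beside 7.01% of all genes tested called in either direction. The selenophosphate synthetase itself, Sephs2, is counted with the other selenoproteins and was not called (log2 fold change −0.16, edgeR adjusted p = 0.197). Sephs1, a relative of the selenophosphate synthetase, held 17.2, 18.9, 16.3, 18.2 and 17.6 CPM after training and 15.1, 15.6, 16.4, 15.3 and 14.5 CPM in sedentary hearts. The groups overlapped only by training heart 3 and sedentary heart 3, and the log2 fold change was 0.20 (SE 0.05, edgeR adjusted p = 0.0619). The call was lost in 9 of 21 alternative settings. Of the genes in this list, 3 had log2 fold changes above 0 and 7 below, with a median of −0.02. The most abundant, Sars1, which charges the transfer RNA with serine, and Pstk, the kinase of the next step, had log2 fold changes of −0.03 (edgeR adjusted p = 0.718) and −0.14 (edgeR adjusted p = 0.326).

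Of 16 genes of thioredoxin, glutaredoxin and glutathione, 1 was called, as lower, beside 7.01% of all genes tested called in either direction. Txn2, the mitochondrial thioredoxin that Txnrd2 recharges, ranged from 149 to 158 CPM after training and from 161 to 177 CPM in sedentary hearts. The groups did not overlap, and 2.94% of all genes tested were likewise lower without overlap. The mean of 153 ± 3.89 CPM against 172 ± 6.55 CPM gave a log2 fold change of −0.17 (SE 0.04, edgeR adjusted p = 0.0327). The call was lost in 1 of the 21 settings, that with the atrial score as a covariate. Txnip, which binds thioredoxin and restrains it, was variable, at 938 ± 146 against 875 ± 181 CPM (log2 fold change 0.10, edgeR adjusted p = 0.728). In this list 7 genes had log2 fold changes above 0 and 9 below, with a median of −0.02.

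Methionine turnover supplies the residue that the reductases repair. Of 12 methionine cycle genes 10 were tested and 1 was called, as higher, beside 7.01% of all genes tested called in either direction. It was Cth, which makes cysteine from cystathionine, at 2.66 ± 0.50 CPM after training against 1.70 ± 0.50 CPM (log2 fold change 0.64, SE 0.19, edgeR adjusted p = 0.0816). Cth had few counts, its groups overlapped, and its call was lost in 10 of 21 settings. Mat2a, which makes S-adenosylmethionine, and the methionine synthase Mtr had log2 fold changes of −0.10 and −0.03 (edgeR adjusted p = 0.543 and 0.881). Of the MICAL monooxygenases, whose action on actin MSRB1 reverses, none of the 3 was called by edgeR or by DESeq2, and 1 was at an unadjusted p below 0.05. Their log2 fold changes were −0.06 for Mical1, −0.11 for Mical2 and −0.20 for Mical3 (edgeR adjusted p = 0.657, 0.434 and 0.164).

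NRF2, the factor encoded by Nfe2l2, induces Txnrd1 and many other genes of the oxidant response. Of 13 genes in that list 12 were tested and 1 was called, as lower, beside 7.01% of all genes tested called in either direction. This was Me1, the malic enzyme that supplies NADPH, at 87.5 ± 4.44 CPM after training against 99.4 ± 3.86 CPM (log2 fold change −0.18, SE 0.04, edgeR adjusted p = 0.0387). Its groups did not overlap, and 2.94% of all genes tested were likewise lower without overlap. The call was lost in 3 of 21 settings, those with library totals alone, with the atrial score and without sedentary heart 3. The ferritin genes Fth1 and Ftl1, the most abundant of the list, had log2 fold changes of −0.11 and 0.09 (edgeR adjusted p = 0.223 and 0.465), and both have processed copies elsewhere in the genome that can take some of their reads. The log2 fold changes of the list were above 0 for 7 genes and below 0 for 5, with a median of 0.01.

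The spread over the alternative settings of the fit differed among the genes. Msrb1 lay between −0.40 and −0.32 on the log2 scale, Gpx4 between −0.21 and −0.13, and Gpx1 between 0.07 and 0.37. Gpx3 was above 0 in all settings but that with the atrial score as a covariate. The values of Msra, Msrb2, Msrb3, Selenow and Txnrd2 crossed 0 under some settings, and those of Txnrd1 stayed above 0 between 0.004 and 0.08.

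**Figure D5:**
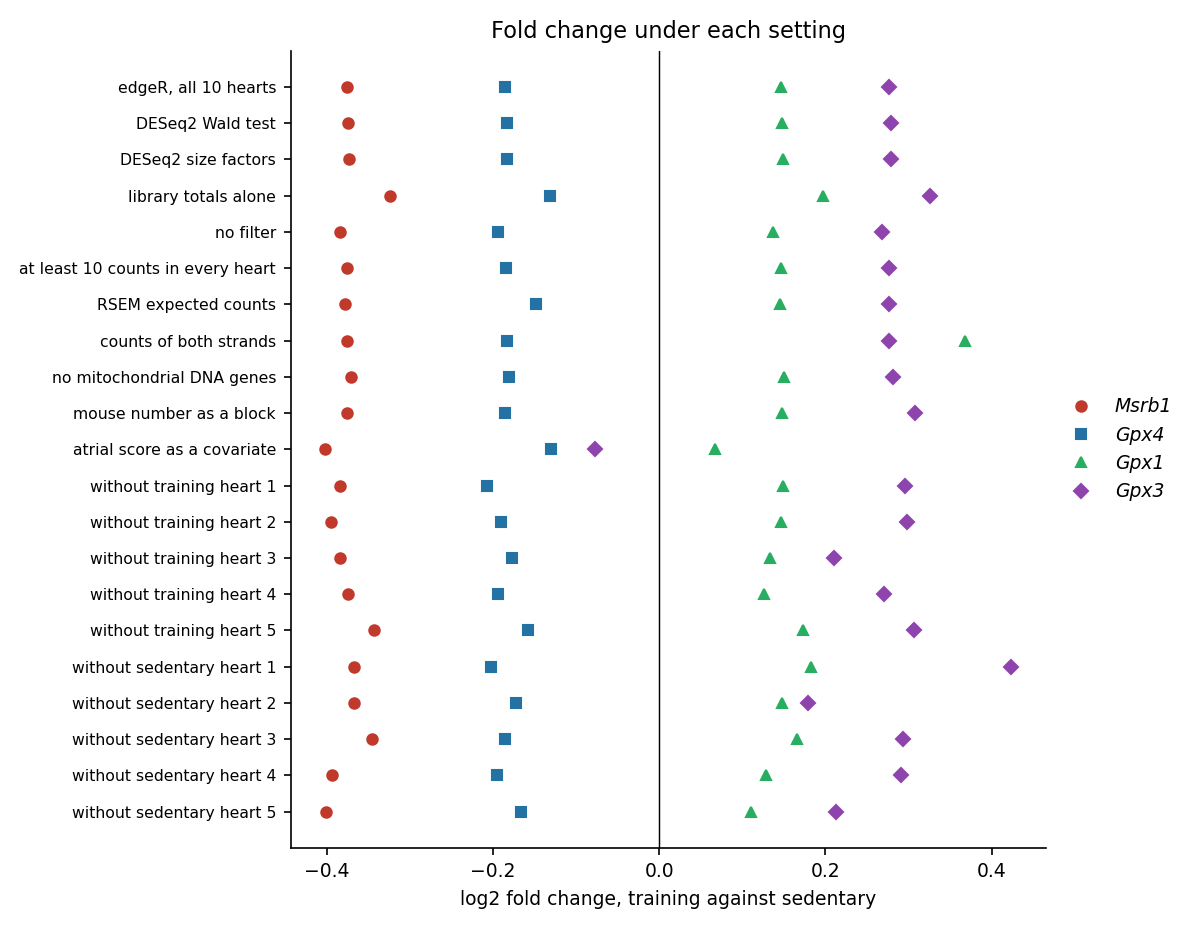
Log2 fold change of Msrb1, Gpx4, Gpx1 and Gpx3 with all 10 hearts (top line) and under 20 alternative settings, 1 per line. Msrb1 stays between −0.40 and −0.32, whereas Gpx3 ranges from −0.08 with the atrial score as a covariate to 0.42 without sedentary heart 1.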

How the data were processed

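Libraries were made by the authors with a directional poly-A kit and sequenced as single reads of 1 pool. The authors aligned them with STAR 2.7.10a and quantified them with RSEM 1.3.3 on GRCm39. The deposited counts are unique reads per gene, given for each strand, and the reverse-strand column, which held 94.9 to 95.7% of the stranded reads, was used. The authors' RSEM files hold expected counts, rounded here, and TPM, used only to compare levels between genes. Symbols and coordinates came from GENCODE M39, which names 56017 of the 56748 identifiers. Library totals ranged from 29461697 to 39431030 counts.

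Genes kept by filterByExpr were fitted with edgeR 4.0.16 (R 4.3.3, quasi-likelihood F test, TMM, Benjamini-Hochberg over all genes, FDR below 0.1, the threshold of the study). DESeq2 1.42.0, other scalings and filters, counts of both strands, RSEM counts, covariates and the omission of each heart were alternatives. On simulated counts for these 15454 genes, edgeR called 188 of 200 changed genes (88 of 100 at a log2 change of 0.5), with 10.9% false calls. The simulated log2 changes were 0.5 and 1 only, larger than those of the 10 genes. No variation shared between genes, such as that of the atrial markers, was simulated. The simulation therefore gives no recovery rate for changes as small as those of the 10 genes. The 10 genes and all lists were chosen with earlier results of these data known. Named were the 10 genes, of the related lists every gene called and the 2 with the highest mean TPM, the MICAL genes, and the 5 genes most correlated with Msrb1. Selenok, Selenos, Sephs2 and some cell type markers were named after their values were seen. Coding windows were read from the GRCm39 genome at annotated selenocysteine positions, and identities came from local BLOSUM62 alignment of the translated models.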

Additional observations from a re-analysis of the deposited data

How the results depend on the processing

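The 10 genes kept 2 calls except with the atrial score as a covariate (1, Msrb1) and on leaving out 1 heart, which gave 1 (without training heart 3) to 4 (without sedentary heart 1). Over all genes the 1084 calls became 126 with the atrial score, 505 at an FDR below 0.05, and 512 (without training heart 4 or sedentary heart 3) to 1490 (without sedentary heart 1) on leaving out 1 heart; without training heart 3 there were 540, without sedentary heart 2 611 and without sedentary heart 4 671. DESeq2 called 1411. Scaling by library totals alone called 1029 as higher and 339 as lower, in place of 425 and 659, and moved the median of all genes to 0.05 on the log2 scale. The mouse number as a replicate block gave 1137 calls; it names separate animals, 3 of 10 hearts correlated best with their own number, and deviations of same-numbered hearts had correlations of −0.10 to 0.16. The other selenoproteins, with no call, had 1 with DESeq2 (Selenof), 1 with RSEM counts (Selenok), 2 with library totals, and 0 to 1 without 1 heart (Selenos, without sedentary heart 1). The selenocysteine list fell from 1 to 0 calls with no filter, the atrial score or an FDR below 0.05, and to 0 to 1 without 1 heart (0 without training heart 2, 4 or 5 or sedentary heart 2, 4 or 5). The methionine list fell from 1 to 0 with RSEM counts, the atrial score or an FDR below 0.05, and to 0 to 1 without 1 heart (0 without training heart 1, 3, 4 or 5 or sedentary heart 3, 4 or 5). The thioredoxin list fell to 0 with the atrial score. The NRF2 list had 0 calls with library totals or the atrial score, 2 with counts of both strands, and 0 (without sedentary heart 3) to 2 (without sedentary heart 1) on leaving out 1 heart. The log2 fold change of Gpx1 was 0.37 with counts of both strands. The causes were not tested. Gpx3, called without sedentary heart 1, had a log2 fold change of −0.08 with the atrial score. Counting error is small for the 10 genes at 770 or more counts per heart, while Cth rests on few counts.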
